A study of Mus musculus with 24 samples.

Results

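The 40 mouse genes described here encode the machinery that carries a cell from G2 through mitosis, and were taken by gene symbol from a table of 24537 genes. They comprise cyclins with CDK1 and its activating phosphatases, mitotic kinases, the spindle checkpoint and the anaphase-promoting complex (APC/C), chromosomal passenger proteins, kinetochore proteins, kinesins and other spindle proteins, cytokinesis factors and chromosome structure proteins. All 40 were in the table and all 40 were among the 13044 genes that passed the filter on low counts and were tested. The choice used gene names and no measured value of this contrast, although earlier results of these data were known when the list was drawn up.

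RNA sequencing was done on CD8+ (cytotoxic) T cells of the mouse after activation in vitro and exposure to single bile acids. The 8 groups of 3 libraries were a control, 5 unconjugated acids at 50 µM and 2 taurine conjugates at 100 µM. The unconjugated acids were LCA (lithocholic acid), its isomers IsoLCA and IsoAlloLCA (isolithocholic and isoallolithocholic acid), DehydroLCA (dehydrolithocholic acid) and UDCA (ursodeoxycholic acid). The conjugates were TCA (taurocholic acid) and TCDCA (taurochenodeoxycholic acid). Exposure is given as 24 h in the design text and as overnight in the treatment protocol. All groups, control included, were thus activated T cells, and the labels used here name no mouse strain, no vehicle for the control and no animal or culture behind a library. P-values therefore measure the spread between these libraries, which may be technical.

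Each library held 25998051 to 41024340.5 counts in genes (median 32852325). The labelled cell type was present in its markers. Across the 24 libraries Cd8a ran from 586 to 777 CPM (counts relative to library size) and Cd3e from 282 to 419 CPM, while Cd4 stayed at 0.277 to 1.22 CPM. All B cell markers other than Cd79b (3.48 to 5.78 CPM) were at or below 0.453 CPM, and myeloid, natural killer, erythroid and stromal markers were at or below 1.14 CPM. The share of a library's counts that fell in exons was 82.6% ± 1.37 (SD, n = 3) in control, 80.7% ± 1.52 with LCA and 78.3% ± 2.78 with IsoAlloLCA, and its part in the results below was not tested. Marker lists other than the stromal and B cell ones were higher with IsoAlloLCA than in control, without overlap. The summed level of 5 CD8 T cell markers was 2214 to 2358 CPM against 1851 to 1875, of 2 natural killer markers 1.19 to 1.65 against 0.523 to 0.887, of 5 myeloid markers 0.73 to 1.15 against 0.335 to 0.719 and of 4 erythroid markers 0.228 to 0.577 against 0.0619 to 0.199, and Cd4 was at 0.789 to 1.22 against 0.496 to 0.611. The 4 B cell markers summed to 4.2 to 4.51 CPM with LCA and 4.26 to 5.1 CPM with IsoAlloLCA, both below the 5.79 to 6.17 CPM of control. Their part in the results was not tested.

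As background, cyclin B bound to CDK1 drives entry into mitosis, and its inhibitory phosphates are removed by CDC25 phosphatases. Polo-like and Aurora kinases then build the spindle, the checkpoint proteins BUB1, BUBR1, BUB3, MAD2 and TTK hold back the APC/C until chromosomes are attached, and APC/C with CDC20 and the ubiquitin-conjugating enzyme UBE2C destroys cyclin B and lets the cell divide. Most of these genes are transcribed in a wave in late S, G2 and M phase under the DREAM, B-MYB and FOXM1 regulators. Antigen-stimulated CD8+ T cells divide rapidly, so their transcripts are abundant in such cultures.

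The wave is known to depend on 2 short promoter elements, the cell cycle genes homology region (CHR, TTTGAA) and the CCAAT box, so the bases in front of the start site are shown for 9 genes on which the results turn. RefSeq promoter windows of the GRCm38.p6 build, from 250 bases before to 50 after the start, were matched for 33 of the 40 genes. The 100 bases before the start site are printed 5′ to 3′ on the gene's strand. Capitals mark a TTTGAA or CCAAT match on either strand that lies wholly before the start (TTCAAA and ATTGG are the reverse forms). A CCAAT match at base -2 of Gtse1 crosses the start and is not marked.
Top2a (chr11:99024190-99024289, minus strand): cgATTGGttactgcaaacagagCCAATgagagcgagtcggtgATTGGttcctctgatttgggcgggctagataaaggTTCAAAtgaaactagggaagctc
Cenpa (chr5:30666786-30666885, plus strand): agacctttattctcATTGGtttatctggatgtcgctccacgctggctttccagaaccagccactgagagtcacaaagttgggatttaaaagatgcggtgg
Ccnb2 (chr9:70421555-70421654, minus strand): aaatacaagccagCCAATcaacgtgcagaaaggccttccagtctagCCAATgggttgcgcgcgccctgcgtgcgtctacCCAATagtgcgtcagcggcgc
Plk1 (chr7:122159335-122159434, plus strand): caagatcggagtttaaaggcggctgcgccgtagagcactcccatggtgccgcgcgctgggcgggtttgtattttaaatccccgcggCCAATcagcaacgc
Nusap1 (chr2:119618198-119618297, plus strand): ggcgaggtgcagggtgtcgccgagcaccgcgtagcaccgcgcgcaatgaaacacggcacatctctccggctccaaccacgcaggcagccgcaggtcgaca
Cdk1 (chr10:69352913-69353012, minus strand): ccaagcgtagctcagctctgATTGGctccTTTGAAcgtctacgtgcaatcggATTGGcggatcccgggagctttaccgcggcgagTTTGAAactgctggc
Cdc25b (chr2:131186848-131186947, plus strand): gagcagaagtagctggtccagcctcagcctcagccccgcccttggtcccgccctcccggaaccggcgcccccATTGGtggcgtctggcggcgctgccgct
Aurka (chr2:172370571-172370670, minus strand): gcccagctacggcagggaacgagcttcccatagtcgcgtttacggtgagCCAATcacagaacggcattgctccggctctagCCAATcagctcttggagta
Gtse1 (chr15:85859607-85859706, plus strand): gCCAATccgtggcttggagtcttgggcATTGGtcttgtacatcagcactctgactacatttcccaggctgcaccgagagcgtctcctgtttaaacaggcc

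The windows of Cdk1 and Top2a carried both elements in these bases. Plk1, Aurka and Ccnb2, which fell with LCA or IsoAlloLCA, and Gtse1, Cenpa and Cdc25b, which fell with LCA and rose with IsoAlloLCA, carried CCAAT boxes without a CHR in these bases, and Nusap1 carried neither. Over the full window of 300 bases a CHR was found in 23 of the 33 genes (69.7%), against 17.9% of the 32851 mouse windows, and in 12 of 33 (36.4%) against 16% in the 250 bases upstream. The CCAAT box was found upstream in 26 of 33 (78.8%), against 33.8% of all windows. Several matches lay just downstream of the start and thus outside the printed bases, such as the CHR at base 31 of Plk1, base 33 of Aurka, base 17 of Cenpa and base 5 of Ccnb2. Ccnb2 also had a CHR at base -167, ahead of the printed bases. In the full window a CHR was found in 11 of 20 genes lowered by LCA and 12 of 13 not called. With IsoAlloLCA it was found in 11 of 16 lowered, 2 of 5 raised and 10 of 12 not called. Upstream CCAAT boxes, in the same order, were found in 14 of 20 and 12 of 13, and in 15 of 16, 4 of 5 and 7 of 12. A relation of either element to the response was not tested. A match is a stretch of letters and no measured site of binding, and its absence says only that these letters are not in this window.

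Averaged over the 24 libraries, the median of the 40 genes was 174 CPM, against 26.6 CPM over all tested genes. Levels between genes are compared per transcript length, as RPKM (reads per kilobase of transcript and unit of library size). Top2a, the topoisomerase that untangles sister chromatids, was highest at 323 ± 1.93 RPKM (SD, n = 3), followed by Ube2c at 194 ± 4.52 RPKM. Next came the condensin subunit Smc4 at 160.2 ± 2.05 RPKM, Ccna2 (cyclin A) at 159 ± 1.5 RPKM and the proliferation marker Mki67 at 156 ± 13.1 RPKM, whose means lay within the SD of Mki67. The lowest were Ttk at 17.8 ± 0.659, the phosphatase Cdc25c at 13.4 ± 0.242 and the cytokinesis scaffold Anln at 10.2 ± 0.364 RPKM. No library had fewer than 686.5 counts of any of the 40 genes. The ratio of the highest to the lowest of the 24 libraries was 1.12 for Smc4, the smallest among the 40 genes, and 1.76 for Gtse1, the largest.

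**Figure D1:**
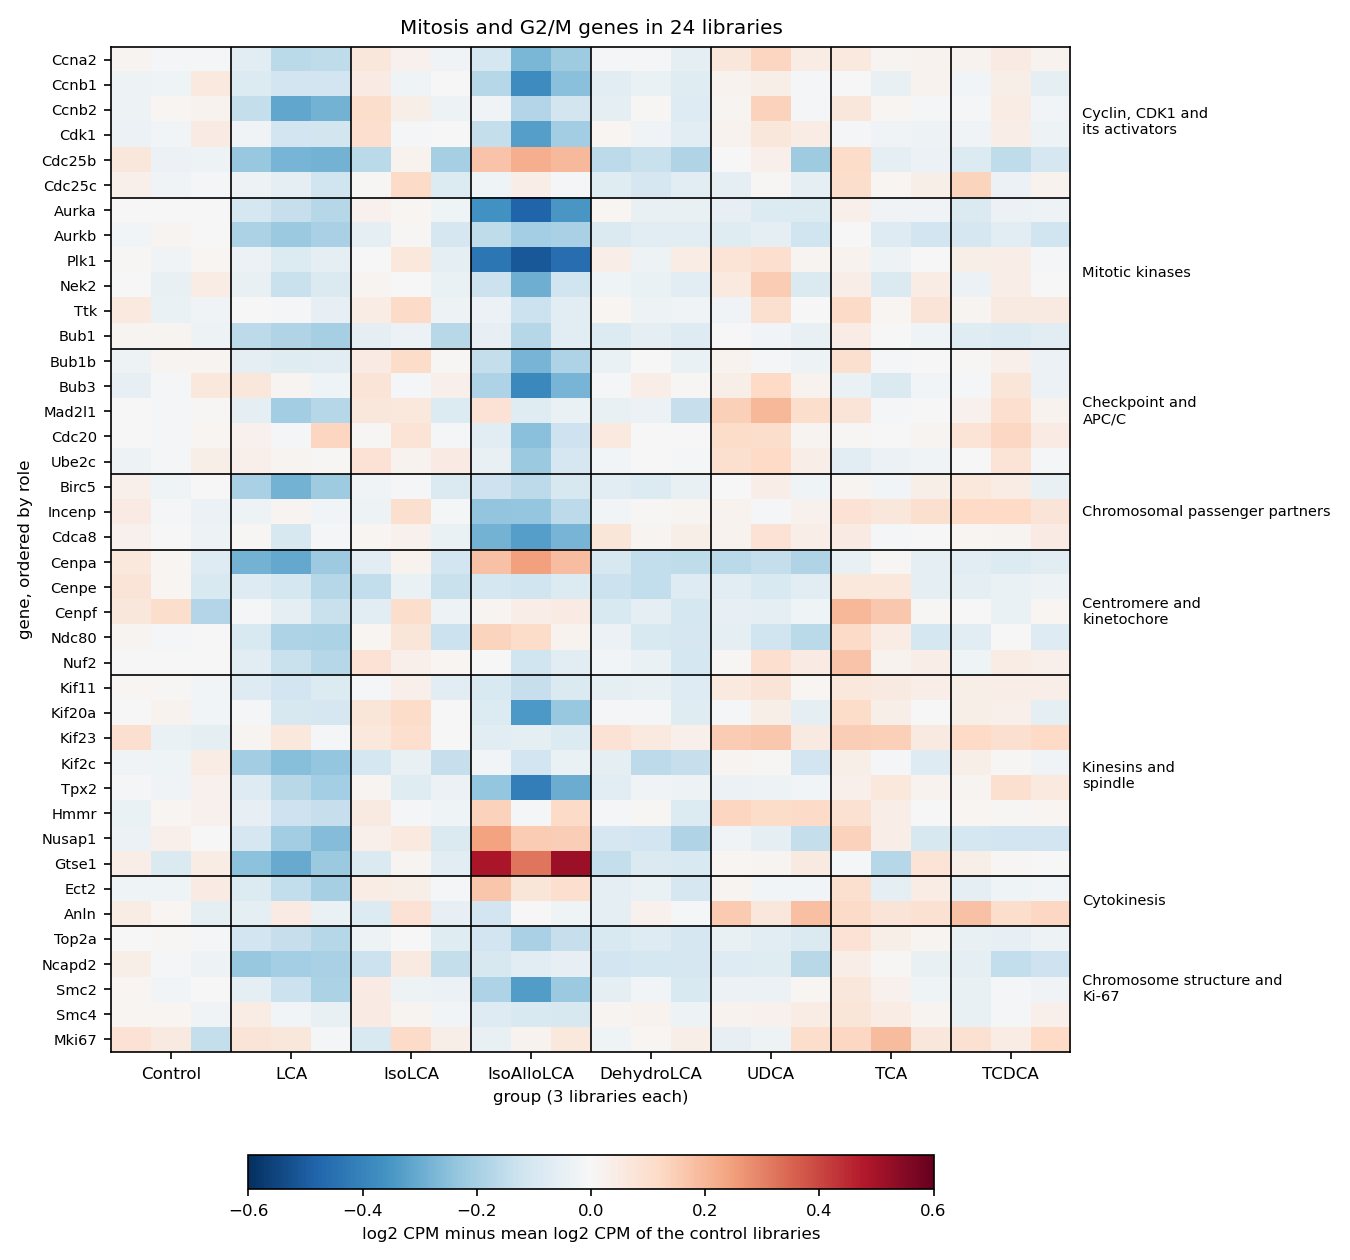
Each row is a gene, ordered by role, and each column a library, in 8 groups of 3. Colour gives log2 CPM minus the mean log2 CPM of the control libraries, from blue (lower) to red (higher). LCA libraries are blue over most rows, and IsoAlloLCA libraries hold both the strongest blue rows (Plk1, Aurka) and red rows (Gtse1, Cenpa), while the other acids are close to white.

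Of the 7 acids, LCA and IsoAlloLCA changed most of the 40 genes and the other 5 changed few or none. Summed over the 40 genes, transcript level was 11005 ± 188 CPM in control (10797 to 11165, n = 3), 10334 ± 225 CPM with LCA (10137 to 10580) and 10294 ± 233 CPM with IsoAlloLCA (10027 to 10453). On this TMM scale neither of these groups overlapped control, and they overlapped each other. The sum was 10656 ± 63.1 CPM with DehydroLCA, also below the control range, and its mean was 10956 to 11331 CPM in the 4 remaining groups. The separation depended on the scaling. With library totals only, control ran from 10490 to 11159, LCA from 10263 to 10626, IsoAlloLCA from 10541 to 10756 and DehydroLCA from 10574 to 10596 CPM, so all 3 acids overlapped control. In bulk RNA, fewer cells in G2 or mitosis and less transcript per such cell cannot be told apart. A gene is called below where edgeR's quasi-likelihood test gave a Benjamini-Hochberg adjusted p under 0.05 over all tested genes, and fold changes are log2 values ± SE.

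LCA lowered 23 of the 40 genes and raised none. The background was high: 18.8% of all tested genes were called lower and 17.7% higher, and among the 6648 tested genes at least as abundant as the lowest of the 40 these shares were 24.6% and 19.5%. The 40 genes stood at 57.5% lower, with 35 of 40 fold changes below 0 and a median of -0.11, against 0.01 over all tested genes. The decreases were small, with a median of -9.82% among the called genes. Scaling by library totals alone gave 16 lower and 0 higher.

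Among the cyclins, CDK1 and its activators, 4 of 6 fell with LCA. Cdc25b, the phosphatase that starts cyclin B activation, had 193, 179 and 180.0 CPM in the 3 control libraries and 157, 152 and 151 CPM with LCA, a change of -0.26 ± 0.06 (edgeR, Benjamini-Hochberg adjusted p = 0.00062). Ccnb2 (cyclin B2) went from 133, 137 and 137 CPM to 123, 109 and 111 CPM, or -0.25 ± 0.05. In neither gene did the groups overlap. Ccna2 had 450.3, 443 and 443 CPM in control and 425, 398 and 401 CPM with LCA (-0.13 ± 0.04), and Ccnb1 (cyclin B1) 169, 170.3 and 180.1 CPM and 163, 159.8 and 159.7 CPM (-0.11 ± 0.04, adjusted p = 0.0409 in the same edgeR test). Both groups were again separate. Cdk1 itself, at 186, 189 and 198 CPM in control and 188, 176 and 177 CPM with LCA, overlapped control and was not called (-0.08 ± 0.04, edgeR adjusted p = 0.121). Cdc25c was not called either (-0.07 ± 0.05).

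Of the centromere and kinetochore genes 4 of 5 fell with LCA, and of the kinesin and spindle genes 6 of 8. Cenpa, the histone H3 variant that marks centromeres, fell from 147, 142 and 134 CPM to 116, 114 and 121 CPM, which was -0.27 ± 0.04 or -17% (edgeR adjusted p = 5.64e-06). Gtse1, a microtubule-binding protein of G2 and mitosis, had 121, 110.1 and 121 CPM in control and 98.6, 94.9 and 100.3 CPM with LCA (-0.26 ± 0.05). All 3 LCA libraries were below all 3 control libraries for both genes. Kif2c, a kinesin that removes tubulin from microtubule ends, changed by -0.23 ± 0.04, and Nusap1, which bundles spindle microtubules, by -0.19 ± 0.05. Kinetochore components Ndc80 (-0.15 ± 0.05) and Nuf2 (-0.12 ± 0.04) fell less. The spindle genes Tpx2 (-0.15 ± 0.04), Hmmr (-0.10 ± 0.04) and Kif11 (-0.09 ± 0.03), whose kinesin pushes the spindle poles apart, and the cytokinesis gene Ect2 (-0.14 ± 0.04) completed these groups, while the kinesins Kif20a (-0.07 ± 0.05) and Kif23 (0.02 ± 0.04), Anln (-0.02 ± 0.05) and the kinetochore gene Cenpf (-0.07 ± 0.06) were not called. Of the 23 called genes, the kinetochore motor gene Cenpe (-0.12 ± 0.04) was the only one whose LCA libraries overlapped control. The call rests on the same libraries, so separate groups add no support, here or for the other called genes. The share of all tested genes without overlap was not counted in any comparison. Plk1, Bub1b, Cdc25c and Nek2 did not overlap control either and were not called.

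Of the mitotic kinases 3 of 6 fell with LCA, and of the chromosomal passenger partners 1 of 3. Aurkb, the kinase of the chromosomal passenger complex, had 179.8, 184 and 182 CPM in control and 159.8, 156 and 159 CPM with LCA (-0.20 ± 0.03, edgeR adjusted p = 3.58e-05). Its partner Birc5 (survivin) had 222, 214 and 218 CPM and 191, 179 and 188 CPM (-0.23 ± 0.03), whereas the other partners Incenp (-0.01 ± 0.03) and Cdca8 (-0.03 ± 0.03) were not called. Bub1 (-0.18 ± 0.04) and Aurka (-0.14 ± 0.03) fell. Plk1, at 180.4, 177 and 181 CPM in control and 175, 169.6 and 173 CPM with LCA, was not called (-0.06 ± 0.03, edgeR adjusted p = 0.205).

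Of the checkpoint and APC/C genes 1 of 5 was called with LCA. This was Mad2l1, the checkpoint protein that binds CDC20, at -0.14 ± 0.05. Cdc20 had 168, 167 and 169.7 CPM in control and 171, 167 and 184 CPM with LCA, Ube2c 176, 179 and 184 CPM and 183, 181 and 180.4 CPM, and Bub1b 236, 244 and 244 CPM and 231, 229 and 231 CPM. None of these 3 was called, nor was Bub3 (0.02 ± 0.04). Among chromosome structure genes, Top2a fell from 1674, 1678 and 1659 CPM to 1544, 1517 and 1482 CPM (-0.14 ± 0.03), and the condensin subunits Ncapd2 (-0.21 ± 0.04) and Smc2 (-0.12 ± 0.04) fell with it. Mki67, the usual marker of proliferating cells, had 1662, 1622 and 1416 CPM in control and 1651, 1638 and 1549 CPM with LCA. The LCA libraries lay within the control range, and Mki67 was not called (0.04 ± 0.05).

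**Figure D2:**
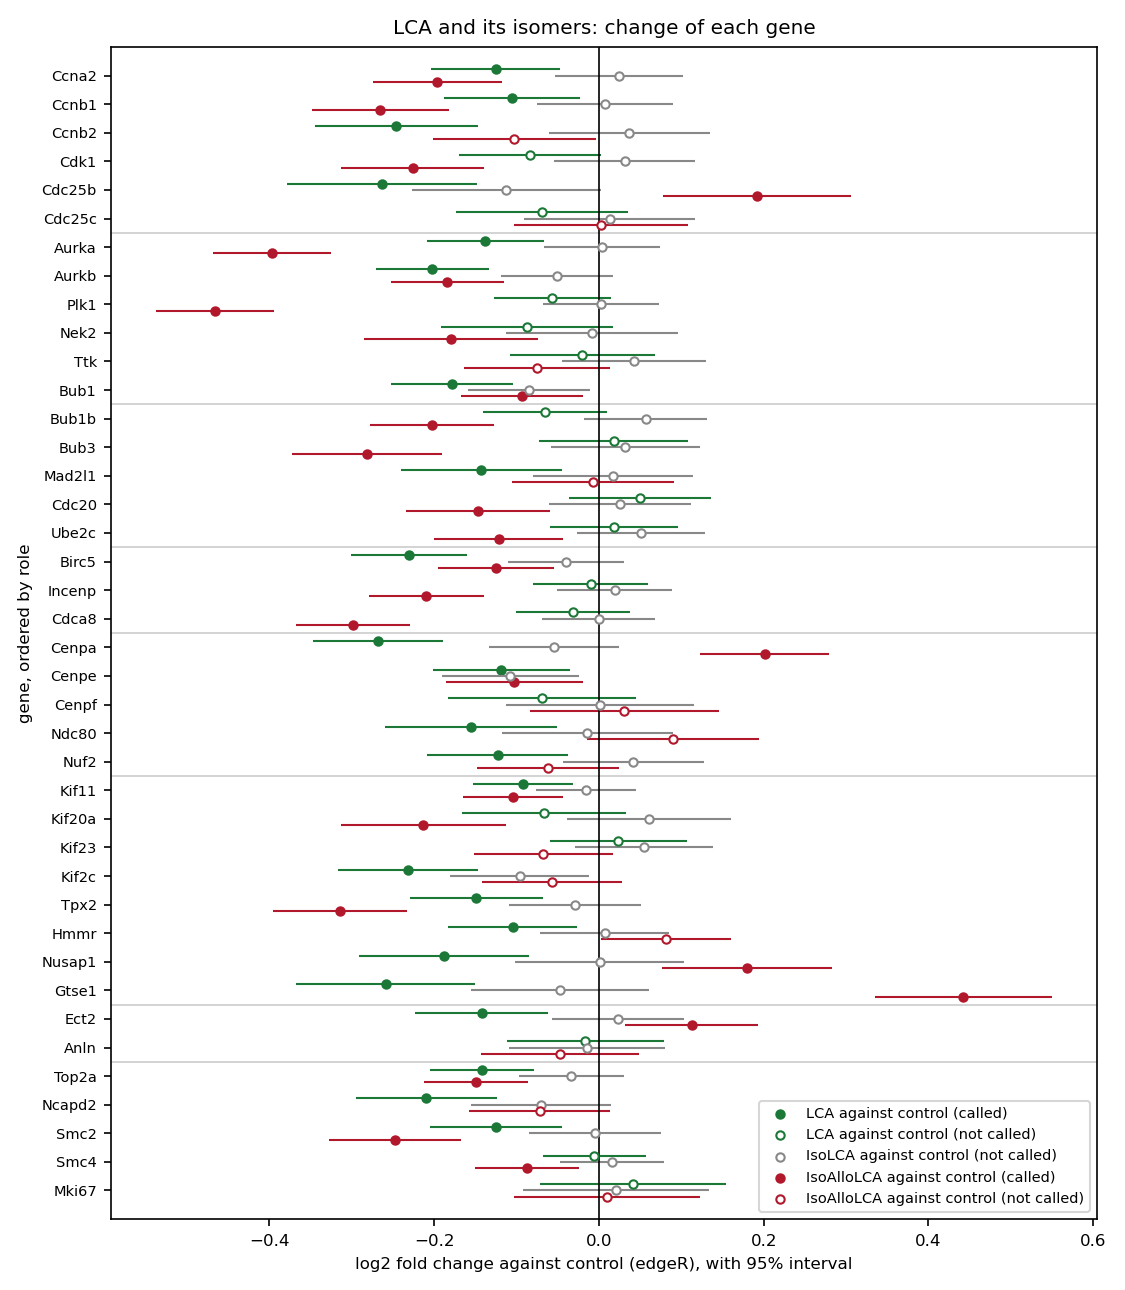
Points give the log2 fold change of each gene against control for LCA (green), IsoLCA (grey) and IsoAlloLCA (red), with the 95% interval as a line. Filled points passed an adjusted p of 0.05 and open points did not. LCA points lie mostly left of 0, all IsoLCA points are open, and IsoAlloLCA points reach from -0.47 (Plk1) to 0.44 (Gtse1).

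IsoAlloLCA lowered 22 of the 40 genes and raised 5. It also called 27.8% of all tested genes lower and 30.6% higher, or 42% and 24.8% of genes as abundant as these 40, so the share called lower (55%) has to be read against that background. The median over the 40 was -0.10, against 0.03 over all tested genes, and 30 of 40 fold changes were below 0. Scaling by library totals alone gave 15 lower and 7 higher.

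Of the mitotic kinases 5 of 6 fell, and they held the 2 largest decreases among the 40 genes. Plk1, the polo-like kinase of mitotic entry, had 180.4, 177 and 181 CPM in control and 133, 126 and 131 CPM with IsoAlloLCA. This was a change of -27.6% (-0.47 ± 0.03, edgeR adjusted p = 2.88e-11). Aurka, which matures centrosomes and activates PLK1, went from 108, 108 and 108 CPM to 84.3, 77.7 and 85 CPM (-0.40 ± 0.03, or -24%). Tpx2, the spindle protein that activates Aurora A, fell as well, from 345, 341 and 353 CPM to 295, 259 and 282 CPM (-0.31 ± 0.04). All IsoAlloLCA libraries were below all control libraries for these 3 genes, which adds no support to calls from the same libraries. Aurkb, at 164, 158 and 159 CPM (-0.18 ± 0.03), Nek2 (-0.18 ± 0.05) and Bub1 (-0.09 ± 0.04) changed less, and Ttk was not called (-0.07 ± 0.04).

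Of the cyclins, CDK1 and its activators 3 of 6 fell and 1 rose. Ccnb1 was at 154, 133 and 145 CPM with IsoAlloLCA (-0.27 ± 0.04), Cdk1 at 173, 152 and 165 CPM (-0.23 ± 0.04) and Ccna2 at 415, 368 and 384 CPM (-0.20 ± 0.04). All 3 lay below their control values given above. Ccnb2, at 134, 120.1 and 126 CPM, was not called (-0.10 ± 0.05), nor was Cdc25c (0.00 ± 0.05). Bub3 (-0.28 ± 0.04), Bub1b (218, 198 and 212 CPM, -0.20 ± 0.04), Cdc20 (160.2, 141 and 154 CPM, -0.15 ± 0.04) and Ube2c (174, 154 and 168 CPM, -0.12 ± 0.04) made up 4 of 5 checkpoint and APC/C genes called lower, and Mad2l1 (-0.01 ± 0.05) was not called. The passenger partners Cdca8 (-0.30 ± 0.03), Incenp (-0.21 ± 0.03) and Birc5 (200.2, 196 and 204 CPM, -0.12 ± 0.03) were called lower, 3 of 3. Top2a fell to 1544, 1459.7 and 1516 CPM (-0.15 ± 0.03), the condensin genes Smc2 (-0.25 ± 0.04) and Smc4 (-0.09 ± 0.03) fell too, and so did the kinesin genes Kif20a (-0.21 ± 0.05) and Kif11 (-0.10 ± 0.03). Cenpe was called lower (-0.10 ± 0.04) with libraries that overlapped control. Mki67, at 1513, 1587 and 1632 CPM, lay within the control range and was not called (0.01 ± 0.05).

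The 5 genes that rose with IsoAlloLCA were Gtse1, Cenpa, Cdc25b, Nusap1 and Ect2. Gtse1 had 165, 146 and 167 CPM, an increase of 35.9% over control (0.44 ± 0.05, edgeR adjusted p = 8.68e-08). Cenpa had 159, 167 and 160.2 CPM (0.20 ± 0.04) and Cdc25b 207, 214 and 210.2 CPM (0.19 ± 0.06). Every IsoAlloLCA library was above every control library for these 3 genes, which again adds no support to the calls. Nusap1 (0.18 ± 0.05) and Ect2, the exchange factor that activates RhoA at the cleavage furrow (0.11 ± 0.04), rose less.

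All 5 of these genes had fallen with LCA. The comparisons of LCA and of IsoAlloLCA with control share the control libraries, so the directions are given side by side and the acids were compared directly, a comparison added after these values were seen. Of the 40 genes, 11 were called lower with both acids, 5 were lower with LCA and higher with IsoAlloLCA, and 6 were called with neither (Anln, Cdc25c, Cenpf, Kif23, Mki67 and Ttk). A further 7 were lower with LCA and not called with IsoAlloLCA (Ccnb2, Hmmr, Kif2c, Mad2l1, Ncapd2, Ndc80 and Nuf2), and 11 were lower with IsoAlloLCA and not called with LCA, among them Plk1, Cdk1, Bub3, the central spindle kinesin gene Kif20a and Smc4. The shares of all tested genes with each of these pairs of calls were not counted, so whether these counts are unusual is not known. A call with 1 acid alone does not show a difference between them. IsoAlloLCA against LCA gave 13 of 40 higher and 14 lower, against 32.3% and 29.1% of all tested genes and 30% and 41.2% of genes as abundant as the 40. Gtse1 was 0.70 ± 0.05 (edgeR adjusted p = 1.97e-11), Cenpa 0.47 ± 0.04 and Cdc25b 0.46 ± 0.06 higher on the log2 scale with IsoAlloLCA than with LCA. The largest differences in the other direction were Plk1 at -0.41 ± 0.03 (edgeR adjusted p = 1.8e-10), Bub3 at -0.30 ± 0.04 and Cdca8 at -0.27 ± 0.03. The 2 acids differ at the hydroxyl of the first ring and at the junction of the first ring with the next.

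**Figure D3:**
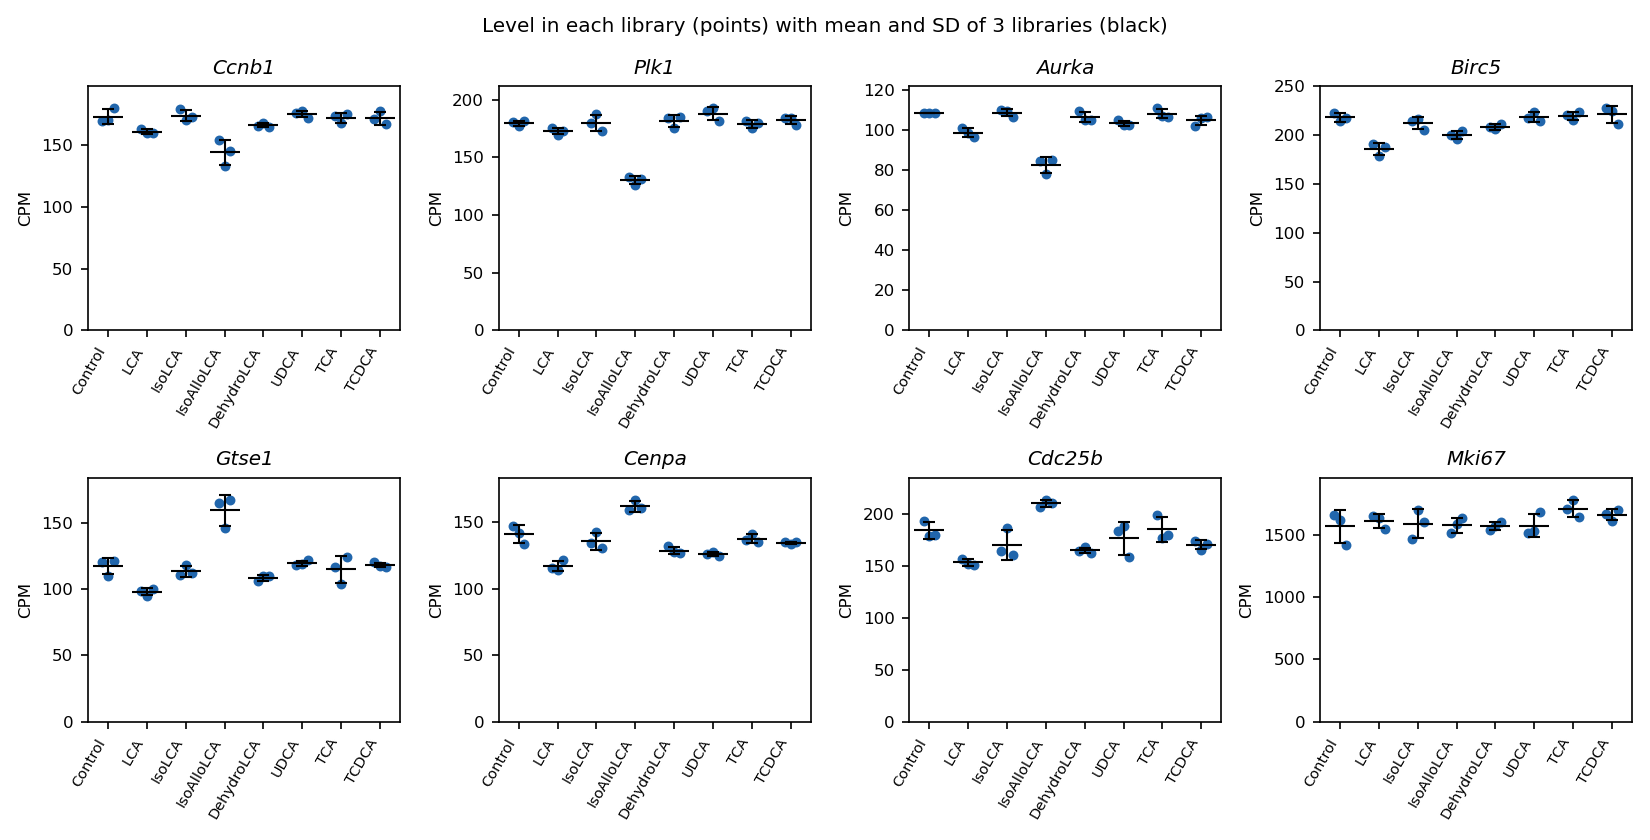
Level of 8 of the genes in CPM (vertical axis from 0) in each of the 24 libraries (points), with the mean and SD of the 3 libraries of a group in black. Plk1 and Aurka are lowest with IsoAlloLCA, Gtse1, Cenpa and Cdc25b are lowest with LCA and highest with IsoAlloLCA, and Mki67 overlaps control with both acids.

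The remaining acids changed few of the genes. IsoLCA changed none of the 40 in edgeR's test (3 at an unadjusted p under 0.05, 0 in DESeq2), and the 95% intervals of all 40 changes lay between -0.23 and 0.16 on the log2 scale. TCA also changed none in edgeR's test (4 at an unadjusted p under 0.05, 0 in DESeq2), with intervals between -0.14 and 0.24. The shares of all tested genes called higher and lower were 3.73% and 6.12% with IsoLCA and 0.0843% and 0.353% with TCA. DehydroLCA lowered Cenpa alone, from the control values above to 132, 127 and 127 CPM (-0.13 ± 0.04, edgeR adjusted p = 0.0393), against 3.41% of all tested genes called lower and 2.41% called higher. This call was 2.5% of the 40 genes, below the share of all tested genes called lower. The other DehydroLCA changes were small but 32 of 40 were below 0, with intervals between -0.27 and 0.14. The single call was lost when any library of the 2 groups other than control replicate 3 was left out, and without control replicate 3 there were 3 calls.

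UDCA lowered Cenpa, to 126, 127 and 124 CPM (-0.16 ± 0.04, edgeR adjusted p = 0.00343), and raised 4 genes, against 10.7% and 9.18% of all tested genes called lower and higher. The share of the 40 called higher (10%) was near that of all tested genes and the 12.4% of genes as abundant. The share of the 40 called lower (2.5%) was below that of all tested genes and the 11.1% of genes as abundant. Mad2l1 had 155, 154 and 155 CPM in control and 171, 177 and 166 CPM with UDCA (0.15 ± 0.05), Anln 56.6, 55.3 and 52.7 CPM and 61.1, 57.5 and 62.3 CPM (0.14 ± 0.05), and Hmmr, a spindle-associated hyaluronan receptor, 181, 188 and 189.7 CPM and 203, 201 and 201 CPM (0.12 ± 0.04). The fourth, the cytokinesis kinesin gene Kif23 (0.12 ± 0.04), overlapped control. It had 126.9, 115.6 and 113.9 CPM in control and 131.8, 132.6 and 123.1 CPM with UDCA. Leaving out any 1 library of the 2 groups left 1 to 3 calls with UDCA, and Cenpa was called in every setting. With offsets for GC content and gene length, all 4 genes raised by UDCA lost their call, and Cdc20, Plk1 and Ube2c were called higher and Cenpe and Top2a lower in their place. TCDCA raised Anln to 62, 59.1 and 59.9 CPM (0.14 ± 0.05, edgeR adjusted p = 0.0491) and Incenp from 306, 293 and 289 CPM to 321, 322 and 312 CPM (0.11 ± 0.03), against 5.08% of all tested genes called higher and 8.04% called lower. These 2 calls were 5% of the 40 genes, near the share of all tested genes called higher. Both calls were lost when any library of the 2 groups other than control replicate 1 was left out, and without control replicate 1 Incenp was called and Anln was not.

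The acids given at the same dose were also compared with each other, in 5 planned pairs, with p-values adjusted over all tested genes within a pair. The pairs that include LCA use the same LCA libraries as the comparison of LCA with control. They are therefore not independent of that comparison or of each other. IsoLCA differs from LCA in the orientation of the hydroxyl on the first ring. With IsoLCA 24 of the 40 genes were higher than with LCA and none was lower, against 15.8% and 14.6% of all tested genes (22.6% and 15.6% of genes as abundant as the 40), with a median of 0.11. The largest were Ccnb2, at 146, 139 and 133 CPM with IsoLCA (0.28 ± 0.05, edgeR adjusted p = 9.21e-05), Cenpa at 134, 143 and 130.1 CPM (0.21 ± 0.04) and Gtse1 at 110.3, 118 and 112 CPM (0.21 ± 0.05). All their IsoLCA libraries exceeded all LCA libraries, which adds no support to calls from the same libraries. The count was 13 without LCA replicate 2, 14 without LCA replicate 3 and 15 without IsoLCA replicate 1. Scaling by library totals alone gave 16 higher and 0 lower.

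IsoAlloLCA differs from IsoLCA in the orientation of the hydrogen at the junction of the first and second rings. Against IsoLCA, 24 of the 40 were lower and 4 higher with IsoAlloLCA, while 28.1% of all tested genes were called lower and 31.7% higher (43.3% and 25.6% of genes as abundant). Scaling by library totals alone gave 16 lower and 8 higher. Plk1 (179, 187 and 173 CPM with IsoLCA, -0.47 ± 0.03, edgeR adjusted p = 2.7e-11), Aurka (110.1, 109 and 106 CPM, -0.40 ± 0.03) and Bub3 (187, 176 and 181 CPM, -0.31 ± 0.04) were lowest relative to IsoLCA. Gtse1 (0.49 ± 0.05), Cdc25b (0.30 ± 0.06) and Cenpa (0.26 ± 0.04) were highest. The groups did not overlap for any of these 6 genes. They were picked from calls on the same libraries, so this adds no support.

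DehydroLCA has a ketone in place of the hydroxyl of LCA. In that pair 6 of the 40 (15%) were higher with DehydroLCA, against 10.3% of all tested genes and near the 14.4% of genes as abundant. None was lower, against 7.49% of all tested genes. Ccnb2 was at 131, 136 and 128 CPM (0.20 ± 0.05, edgeR adjusted p = 0.00436), Birc5 at 208, 206 and 211 CPM (0.17 ± 0.03) and Cenpa at 132, 127 and 127 CPM (0.14 ± 0.04), and Aurkb, Aurka and Bub1 made up the rest. Leaving out LCA replicate 2 left 2 calls and leaving out DehydroLCA replicate 1 left 3. UDCA carries an additional hydroxyl on the second ring. Of the 40 genes 20 were higher with UDCA than with LCA and none was lower, against 14.8% and 12% of all tested genes (22.4% and 11.8% of genes as abundant). Ccnb2 at 137, 149 and 135 CPM (0.30 ± 0.05, edgeR adjusted p = 4.86e-05), Mad2l1 (0.29 ± 0.05) and Gtse1 at 118, 119 and 122 CPM (0.29 ± 0.05) differed most. The count was 12 without UDCA replicate 2.

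TCA carries a hydroxyl on the third ring that TCDCA lacks. None of the 40 differed between them in edgeR's test (6 at an unadjusted p under 0.05, 1 in DESeq2), the smallest adjusted p was 0.115, and the 95% intervals of the 40 differences ran from -0.16 to 0.25. Of all tested genes 2.65% were called higher and 0.958% lower with TCA. In a simulation of the comparison of LCA with control, changes of 1.1-fold were called for 12% of 100 genes and changes of 1.2-fold for 80% of 100. All other genes were left unchanged in the simulation, whereas 4765 genes were called with LCA in the data. The adjusted p was therefore harder to pass in the simulation, and its shares do not carry over to the 40 genes.

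**Figure D4:**
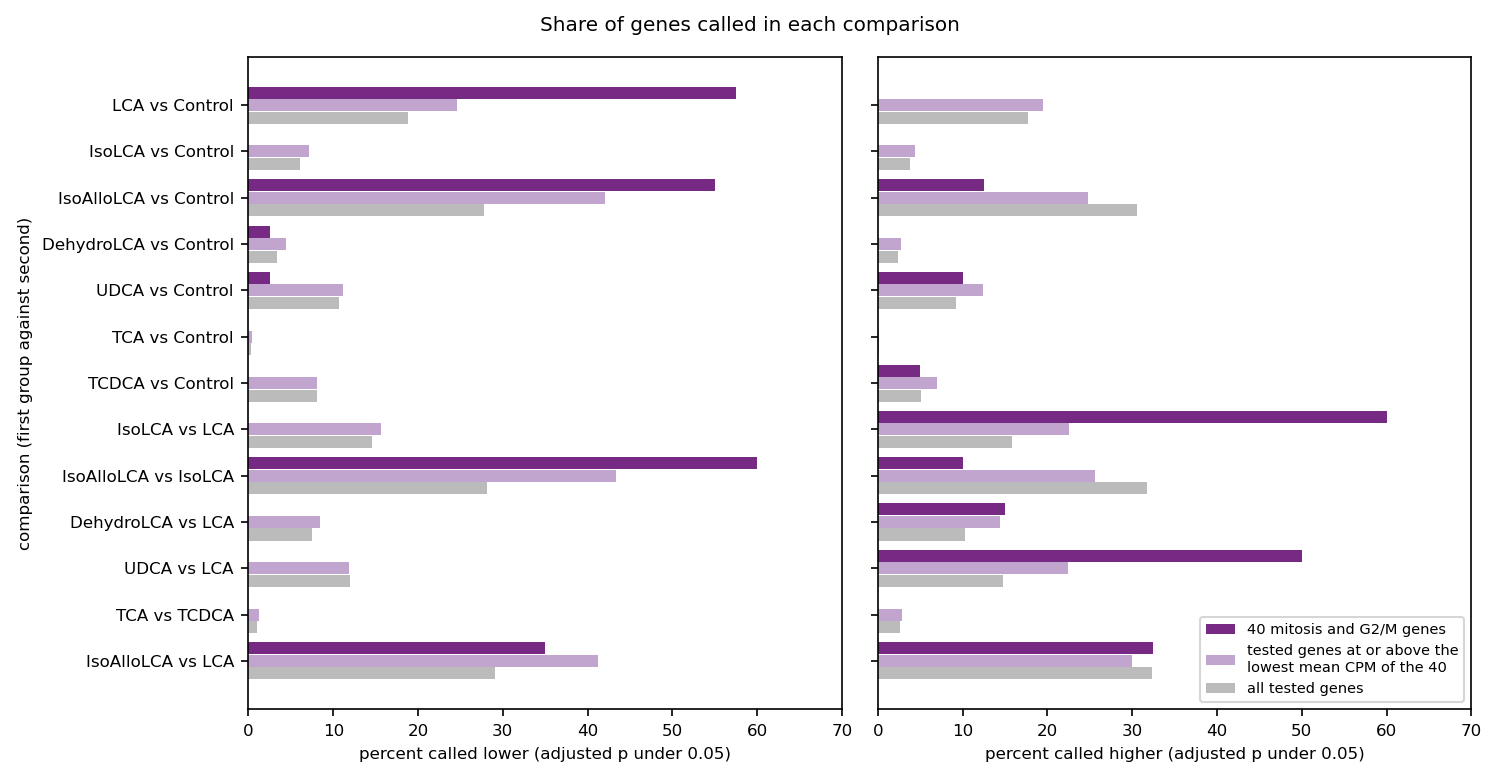
Bars give the percent of genes called lower (left) or higher (right) in each comparison, for the 40 genes (dark), for tested genes at or above the lowest mean CPM of the 40 (light) and for all tested genes (grey). LCA against control has 57.5% of the 40 called lower beside 18.8% of all tested genes, and IsoLCA against LCA has 60% called higher beside 15.8%.

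The regulators that switch this programme were taken as a list of 15 genes of the MuvB, B-MYB, FOXM1, E2F and pocket protein families. With LCA 6 of 15 fell and none rose, among them the repressor E2f7 (-0.34 ± 0.05), the pocket protein gene Rbl2 (-0.26 ± 0.04) and the E2F partner Tfdp2 (-0.31 ± 0.06). The shares of all tested genes called lower and higher with LCA were 18.8% and 17.7%. With IsoAlloLCA 5 fell and 6 rose, near the 27.8% and 30.6% of all tested genes. Rbl2 (0.44 ± 0.04) and Tfdp2 (0.56 ± 0.06) were among those that rose. Mybl2, which encodes B-MYB, had 111 ± 0.969 CPM in control and 75.3 ± 2.58 CPM with IsoAlloLCA (-0.56 ± 0.03, edgeR adjusted p = 9.54e-13). E2f4 (-0.54 ± 0.04) and E2f8 (-0.54 ± 0.04) also fell. Foxm1, named after its values were seen, was not called with either acid (0.05 ± 0.04 with LCA and 0.01 ± 0.04 with IsoAlloLCA).

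Lists of other mitotic genes, none of them among the 40, were examined in the same fits. Of 28 further kinesin, spindle and cytokinesis genes 12 fell and 1 rose with each of LCA and IsoAlloLCA, and 8 were lower with both. The share of all tested genes lower with both was not counted. Examples were Cks2 (-0.23 ± 0.04) with LCA and Tacc3 (-0.32 ± 0.03) with IsoAlloLCA. Of all tested genes 18.8% were lower and 17.7% higher with LCA, and 27.8% and 30.6% with IsoAlloLCA. Among genes as abundant as the 40 these shares were 24.6% and 19.5% with LCA, and 42% and 24.8% with IsoAlloLCA. The 12 of 28 lowered by IsoAlloLCA were thus near the share of genes as abundant. Of 19 further condensin and cohesin genes 9 fell with LCA, led by the condensin II subunit gene Ncapg2 (-0.27 ± 0.03), and none rose. With IsoAlloLCA 10 fell, led by the cohesin regulator Pds5a (-0.36 ± 0.03), and 2 rose. Of 17 APC/C genes 6 fell with LCA and none rose, and 9 fell and 3 rose with IsoAlloLCA, with Anapc16 (-0.25 ± 0.05) and Anapc15 (-0.40 ± 0.06) the called genes of smallest adjusted p. Of 31 further kinetochore and checkpoint genes, LCA lowered 5 and raised 2, against 18.8% and 17.7% of all tested genes. In the same list IsoAlloLCA lowered 9 and raised 5, against 27.8% and 30.6%. The counts lowered in this list were thus near the background shares. Each of these counts is read against the background shares of calls given above for the 2 acids. TCA called none of the genes of any list.

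The preceding phase was represented by its own list. Of 13 G1 and G1/S genes 6 fell and 3 rose with LCA, where 18.8% of all tested genes fell and 17.7% rose. With IsoAlloLCA 9 fell and none rose, where 27.8% of all tested genes fell and 30.6% rose. Ccnd3, the D-type cyclin of dividing lymphocytes, was at 449.7 ± 9.61 CPM in control, 379 ± 4.18 CPM with LCA (-0.25 ± 0.05) and 245 ± 24.1 CPM with IsoAlloLCA (-0.88 ± 0.05, edgeR adjusted p = 4.37e-14).

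Genes that restrain the cell cycle formed a list of 15 tested. With LCA 8 fell and 2 rose (median -0.23), against 18.8% of all tested genes lower and 17.7% higher. With IsoAlloLCA 5 fell and 6 rose (median 0.09), shares near the 27.8% and 30.6% of all tested genes. The CDK inhibitor gene Cdkn1a had 137 ± 8.52 CPM in control, 97.9 ± 7.46 CPM with LCA (-0.49 ± 0.07) and 253 ± 18.7 CPM with IsoAlloLCA (0.88 ± 0.07). Ccng2, a cyclin linked to cell cycle arrest, went from 53.1 ± 5.81 CPM to 24.4 ± 1.13 CPM with LCA (-1.12 ± 0.13), and Cdkn2d changed by -0.60 ± 0.07. The antiproliferative genes Btg1 (93.7 ± 5.43 to 199.9 ± 22 CPM, 1.09 ± 0.06) and Btg2 (34.1 ± 1.79 to 106 ± 8.23 CPM, 1.64 ± 0.11) rose with IsoAlloLCA. Singled out after the values were seen, 6 of the 15 were lower with LCA and higher with IsoAlloLCA: Btg1, Btg2, Ccng1, Ccng2, Cdkn1a and Cdkn1b. The share of all tested genes with such opposite calls was not counted. Gadd45b was higher with LCA and lower with IsoAlloLCA. In the direct comparison of IsoAlloLCA with LCA, Cdkn1a differed by 1.37 ± 0.07 (edgeR adjusted p = 1.14e-14). UDCA lowered 7 of the 15 and TCDCA 3, against 10.7% and 8.04% of all tested genes, and neither raised any, against 9.18% and 5.08%.

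**Figure D5:**
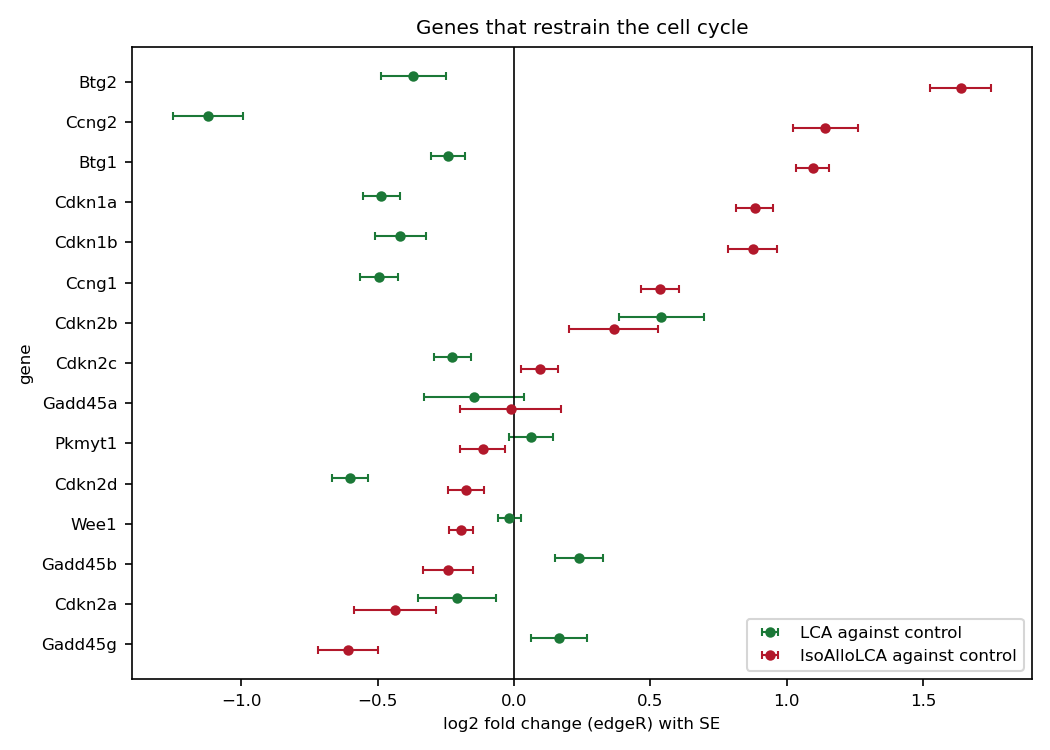
Points give the log2 fold change against control of the 15 tested genes that restrain the cell cycle, with SE, for LCA (green) and IsoAlloLCA (red). Btg2 is at 1.64 and Btg1 at 1.09 with IsoAlloLCA, and Ccng2 is at -1.12 with LCA.

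Overlapping gene models limit 4 of the 40 genes, because no strand option was named for the counting and reads of both strands may have been mixed. Ccna2 overlaps Exosc9, Kif20a overlaps Cdc23, Cdc20 overlaps Elovl1 and Nusap1 overlaps Oip5. In all, the spans of 9 of the 40 genes met another annotated gene and 31 met none.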

How the data were processed

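RNA from 24 libraries of mouse CD8+ T cells, 3 in each of 8 groups, was made into sequencing libraries with an ultra-low input method, per the labels' protocols. Sample titles gave the group and replicate number. The authors deposited 1 table of 24537 genes, made by HOMER from reads over exons of 1 RefSeq transcript per gene on mm10 with no normalization, per the file headers, which name no strand option. STAR, DESeq2 and GRCm38 are also named, without versions, per the submitters' processing notes. These deposited expected counts come in steps of 0.5 (29.43% are not whole), so reads may have been shared out between features. They were rounded to whole numbers, upward at 0.5. Whole counts had been assumed when the design was written. The same test was used.

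Testing used edgeR 4.0.16 under R 4.3.3 (glmQLFit and glmQLFTest), TMM normalization and filterByExpr, which kept 13044 genes. All 24 libraries entered 1 fit with 1 coefficient per group (common biological coefficient of variation 4.41%, 16 residual and 8.84 prior degrees of freedom). Benjamini-Hochberg adjustment ran over all tested genes of a comparison, and an adjusted p under 0.05 was called. The SE is the absolute log2 fold change divided by the square root of the F statistic. CPM values use TMM library sizes, and RPKM values divide them by the length given in the deposited table.

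Chi-square values per degree of freedom between replicates were 2.83 to 18.8, above sampling noise, and each library was kept as its own sample. Alternatives were RLE size factors, library totals only, no low count filter, values ending in 0.5 rounded down, a replicate block, a fit of the 2 groups compared, DESeq2 1.42.0 and leaving out each library. Offsets for GC content and length, and the comparison of IsoAlloLCA with LCA, were added after seeing the data. On simulated data with 13044 genes, 5.15% of calls were of unchanged genes. Any of the 40 genes could be named. Values per library were given for 12 genes listed in the design and for most of the 3 largest rises and falls of each comparison. Among those not printed were Bub3 and Cdca8 with IsoAlloLCA and LCA, Mad2l1 with LCA and Cdc25b with IsoLCA, while Hmmr was added. For each neighbouring list and comparison the design set the 3 called genes of smallest adjusted p to be named. Fewer were printed for most lists, and none from the list of further kinetochore and checkpoint genes. The 40 genes and the lists were chosen with earlier results of these data known.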

Additional observations from a re-analysis of the deposited data

How the results depend on the processing

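Of the genes called for LCA against control 14 of 23 were called in every setting and every omission of a library, as were 19 of 27 for IsoAlloLCA against control, 19 of 27 for IsoAlloLCA against LCA, 11 of 24 for IsoLCA against LCA, 19 of 28 for IsoAlloLCA against IsoLCA and 10 of 20 for UDCA against LCA. The 9 genes that lost their call with LCA in at least 1 setting were Ccna2, Ccnb1, Cenpe, Hmmr, Kif11, Mad2l1, Ndc80, Nuf2 and Smc2, and the 8 with IsoAlloLCA were Birc5, Bub1, Cdc20, Cenpe, Ect2, Kif11, Smc4 and Ube2c. No gene called in a comparison changed direction in any setting run. Leaving out each library in turn gave 16 to 23 calls for LCA against control, 24 to 28 for IsoAlloLCA, 0 to 3 for IsoLCA, 0 to 3 for DehydroLCA, 1 to 3 for UDCA, 0 to 0 for TCA and 0 to 2 for TCDCA. It gave 13 to 24 for IsoLCA against LCA, 24 to 28 for IsoAlloLCA against IsoLCA, 2 to 7 for DehydroLCA against LCA, 12 to 19 for UDCA against LCA, 0 to 1 for TCA against TCDCA and 23 to 25 for IsoAlloLCA against LCA. IsoLCA against control had 1 call without control replicate 3 and 3 without IsoLCA replicate 2, and TCA against TCDCA had 1 without TCA replicate 3.

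DehydroLCA against control, with 1 call, had 0 with library totals only, 0 with no low count filter, 0 with GC and length offsets, 4 with only the 2 groups compared and 3 in DESeq2. DehydroLCA against LCA, with 6 calls, had 3 with library totals only, 12 with only the 2 groups compared and 10 with GC and length offsets. TCDCA against control, with 2 calls, had 1 with RLE size factors, 0 with no low count filter and 4 with only the 2 groups compared. UDCA against control, with 5 calls, had 2 with no low count filter and 2 with only the 2 groups compared. It had 6 with GC and length offsets, 1 of them (Cenpa) shared with the 5. IsoLCA against control had 1 call with GC and length offsets, and TCA against TCDCA had 1 in DESeq2. The GC and length offsets also called Ube2c higher with LCA (0.08 ± 0.03 on the log2 scale, edgeR adjusted p = 0.0423). The cause of these shifts was not tested, and the fit of 2 groups uses fewer libraries by construction.

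The replicate numbers did not pair the libraries in most comparisons. Correlations of deviations between libraries of the same number ran from -0.33 to 0.40, and in 0 comparisons were all over 0.1. In 3 comparisons every library correlated best with its own number, a hint from the data and not the design. These were IsoLCA against LCA, IsoAlloLCA against IsoLCA and IsoAlloLCA against LCA, with correlations from 0.06 to 0.40. With the replicate block these 3 comparisons had 24, 30 and 28 calls, against 24, 28 and 27 without it. Elsewhere the block gave 23 calls for LCA, 27 for IsoAlloLCA, 2 for DehydroLCA, 6 for UDCA and 4 for TCDCA against control. It gave 10 for DehydroLCA against LCA, 22 for UDCA against LCA and 1 for TCA against TCDCA. No called gene lost its call with the block.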
